A study of Mus musculus with 6 samples.

Results

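The genes described here are the nuclear genes for subunits of the respiratory chain and ATP synthase. They were chosen by symbol alone: Nduf genes with an a, b, c, s or v and a number (complex I), Sdha to Sdhd (complex II), 8 Uqcr genes (complex III), 10 ubiquitous Cox genes (complex IV) and every symbol beginning with Atp5 (complex V). The symbols took 82 of the 34665 rows of the count table. Of these, 76 are subunit genes (37 named for complex I, 4 for complex II, 8 for complex III, 10 for complex IV and 17 for complex V) and 6 are Atp5 pseudogene rows. The rule reads symbols and no measured value, though it was drawn up with earlier results of these data known. The symbols leave out some subunits, such as Cyc1, the haem-bearing cytochrome of complex III.

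RNA from 6 tumours of B16, a mouse melanoma line, was sequenced in bulk, and all 6 samples carry the genotype label WT. The ICI group (replicates 1, 2 and 3) received an immune checkpoint inhibitor, and the RI group (replicates 1, 2 and 4) received radiotherapy with the inhibitor. The comparison therefore asks what differed when radiation was added. The agent inhibited, the radiation dose, the time of harvest, the animals' age and whether the sampled tumour was irradiated do not appear in the sources used here. Separate animals are not stated for the libraries, and a p-value here reflects variation among these 6 libraries, some of which may be technical. In bulk RNA, more cells of a kind and more RNA per cell cannot be told apart.

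The respiratory chain sits in the inner mitochondrial membrane. Complexes I and II feed electrons from NADH and succinate to ubiquinone, complex III passes them to cytochrome c, and complex IV hands them to oxygen. Complexes I, III and IV pump protons, and complex V, the ATP synthase, uses the returning protons to make ATP. Complex II is built from nuclear genes alone, whereas the other complexes join nuclear-encoded subunits with subunits made from mitochondrial DNA. Around a small catalytic core, complexes I, III and IV carry many small accessory subunits that serve assembly and stability. Tumour cells, melanoma included, vary in how far they rely on this pathway.

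The library totals lay between 22543721 and 45624013 counts, and each subunit gene had at least 290 counts in every library. The label of melanoma cells was borne out by the markers: the 7 melanocyte lineage genes summed to 13340 to 15180 CPM (counts scaled to library size) in ICI and 10072 to 14379 in RI. Keratinocyte markers summed to at most 0.213 CPM in any library. RI replicate 1 stood apart: 29748 rows had counts there, and 22763 to 24891 in any other library. Mitochondrially encoded rows held 4.33% to 4.91% of counts in ICI and 11.4% to 14.6% in RI.

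Known regulators of respiratory genes, NRF1, the ETS factor GABPA and YY1, bind short motifs near the start sites of many such genes. Promoters of 4 genes that rose are printed, and each of these 4 holds a motif match, which most genes that rose did not. RefSeq promoter windows on GRCm38.p6, from 250 bases before to 50 after the start, matched 64 of the 76 subunit genes with 69 windows. Among those with no matching entry were Atp5a1, Atp5mpl, Cox4i1, Cox6c, Ndufa2, Ndufb9, Ndufs1, Sdhc, Uqcrb, Uqcrc2 and Uqcrq. Capitals mark the motif letters searched, on either strand: GCATGCGC for NRF1, alone or in a longer form with GC in front, CCGGAAGT for ETS factors (ACTTCCGG on the other strand) and AAGATGGC followed by GG for YY1.
Ndufa11, GRCm38.p6 chr17:56717512-56717811, plus strand: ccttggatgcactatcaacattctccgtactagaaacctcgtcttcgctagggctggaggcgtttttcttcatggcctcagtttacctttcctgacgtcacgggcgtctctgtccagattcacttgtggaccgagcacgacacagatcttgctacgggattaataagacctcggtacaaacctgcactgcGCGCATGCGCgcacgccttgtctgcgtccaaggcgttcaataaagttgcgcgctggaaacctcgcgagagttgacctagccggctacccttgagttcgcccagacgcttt
Uqcr11, GRCm38.p6 chr10:80406772-80407071, minus strand: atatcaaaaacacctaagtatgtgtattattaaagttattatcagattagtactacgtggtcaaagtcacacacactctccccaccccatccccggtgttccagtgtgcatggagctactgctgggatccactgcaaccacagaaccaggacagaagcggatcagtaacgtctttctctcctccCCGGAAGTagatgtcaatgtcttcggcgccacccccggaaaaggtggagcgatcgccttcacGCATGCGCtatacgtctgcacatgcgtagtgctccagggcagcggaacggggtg
Atp5h, GRCm38.p6 chr11:115419870-115420169, minus strand: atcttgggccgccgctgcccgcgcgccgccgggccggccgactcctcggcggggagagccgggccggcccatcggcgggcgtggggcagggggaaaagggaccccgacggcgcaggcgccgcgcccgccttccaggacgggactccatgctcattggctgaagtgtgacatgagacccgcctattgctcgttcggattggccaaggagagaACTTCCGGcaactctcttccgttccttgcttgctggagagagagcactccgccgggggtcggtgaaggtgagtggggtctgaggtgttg
Atp5j, GRCm38.p6 chr16:84834927-84835226, minus strand: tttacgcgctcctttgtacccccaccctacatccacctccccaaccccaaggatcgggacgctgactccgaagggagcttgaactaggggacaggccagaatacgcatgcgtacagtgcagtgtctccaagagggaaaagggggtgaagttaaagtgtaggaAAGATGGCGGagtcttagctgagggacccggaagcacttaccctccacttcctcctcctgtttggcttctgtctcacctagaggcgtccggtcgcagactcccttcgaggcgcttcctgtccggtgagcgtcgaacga
Ndufa11 shows the longer NRF1 letters, Atp5h an ETS match and Atp5j a YY1 match, each before the start. Uqcr11 shows an ETS match before the start and the shorter NRF1 letters across it. The start of the printed Atp5j window lies inside the annotated gene. Another Atp5j window, chr16:84835576-84835875, has its start at the annotated gene start and holds none of the searched letters. Atp5j is a head-to-head neighbour of Gabpa, whose exons overlap its own.

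The shorter NRF1 letters were in 10 of the 69 subunit windows (14.5%), against 2.71% of all 32817 mouse windows and 4.68% of the 14521 windows of tested genes. The longer NRF1 letters, which always hold the shorter ones, were in 5 subunit windows (7.25%), against 0.966% of all windows and 1.82% of those of tested genes. YY1 letters were in 5 (7.25%), against 0.847% and 1.78%. ETS letters were in 5 (7.25%), against 3.89% of all windows and 7.38% of those of tested genes. Matches were not confined to genes that rose: Ndufa11, Ndufa6, Ndufa8, Uqcr11 and Atp5l among them held the shorter NRF1 letters, and so did Sdhb, Uqcrc1, Cox6a1, Atp5g2 and Atp5k, which were not called. Of 20 genes that rose and had a window, 5 held the shorter NRF1 letters, 2 the ETS letters and 1 the YY1 letters. Of 44 with a window that were not called, 5, 3 and 4 did. A match describes letters and not a bound site, and the absence of one says only that these letters are not in the window.

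Of the 82 rows, 79 had enough counts to be tested, all 76 subunit genes among them. Between the groups 22 of the 79 rose in RI and 0 fell, at a Benjamini-Hochberg adjusted p under 0.05 in the edgeR quasi-likelihood test over 16924 genes. Over all tested genes 4.46% were called higher and 4.72% lower. Before adjustment, members with p under 0.05 numbered 50 higher and 1 lower, against 15.7% and 15.8% of all genes. DESeq2 called 43 higher and 0 lower (10.3% of all genes higher), and limma-voom 22 and 0 (4.35% of all genes higher). The median log2 fold change of RI over ICI was 0.50 for the 79 members and 0.0144 for all tested genes, and 72 of the 79 were above 0. In 48 members every RI library was above every ICI library and in 1, Sdha, every one was below. Among all tested genes 17.8% and 19.4% were so separated.

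The rises were modest and close to the threshold. The 22 genes rose 1.44-fold to 1.78-fold with adjusted p from 0.0292 to 0.0499 (edgeR), and a further 21 members above 0 and 1 below had an adjusted p between 0.05 and 0.1. The adjusted calls also changed when single libraries were left out, among members and among all genes. In each such edgeR fit all 22 genes stayed above 0 with an unadjusted p under 0.05. These 22 had been picked by their p in the full fit. Without ICI replicate 1, ICI replicate 3, RI replicate 2 or RI replicate 4, 0 members were called, where 0%, 0.0115%, 0% and 0.458% of all genes were called higher. In those edgeR fits 35, 36, 43 and 53 members were higher at an unadjusted p under 0.05, as were 10.4%, 11.5%, 12.3% and 13.3% of all genes. Without ICI replicate 2, 12 members rose (1.35% of all genes did). Without RI replicate 1, the library that stood apart, 27 members rose and 2 fell, against 8.91% and 8.8% of all genes. The members that fell there were Sdha and Atp5b.

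**Figure D1:**
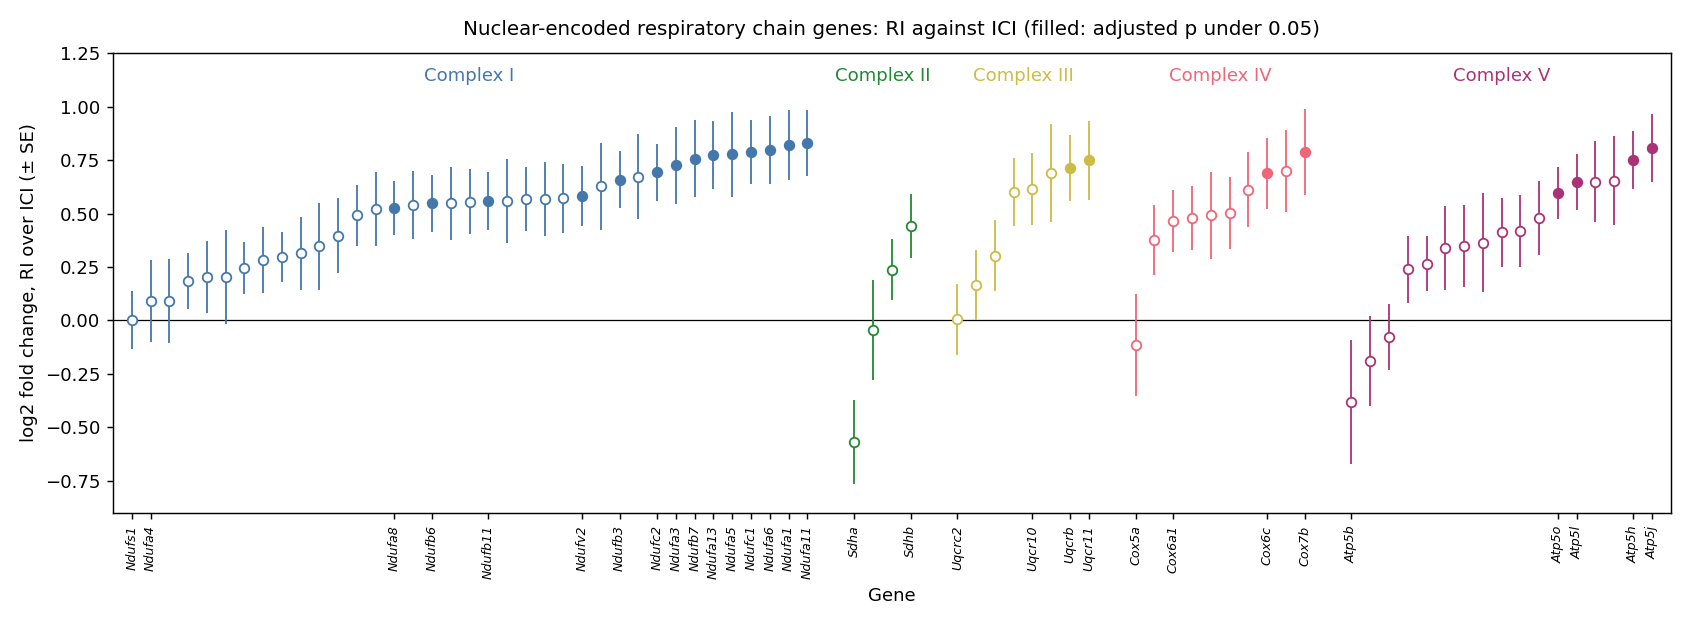
Log2 fold change of RI over ICI for the 76 subunit genes, ordered within each complex, with symbols for the genes that rose and for the highest, lowest and most abundant of each complex; bars are standard errors and filled points have an adjusted p under 0.05 in edgeR. All 37 genes named for complex I lie above 0, and Sdha of complex II, at -0.57, is the lowest point.

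Complex I, the NADH dehydrogenase, held most of the calls: 14 of its 37 genes rose, 0 fell, and the median log2 fold change was 0.56. Ndufa11, an accessory subunit of the membrane arm whose promoter is printed above, rose most among all members. Its level was 57.0, 80.5 and 63.7 CPM in ICI replicates 1, 2 and 3 and 117, 129 and 112 CPM in RI replicates 1, 2 and 4. Every RI library lay well above every ICI library, a log2 fold change of 0.83 (SE 0.155, adjusted p = 0.0308 by edgeR, n = 3 and 3). Ndufc1, a small membrane-arm subunit, stood at 35.9, 45.5 and 35.9 CPM in ICI and 61.1, 77.4 and 63.9 in RI, a log2 fold change of 0.79 (SE 0.151). The groups were again apart, and replicate 2 was the highest of each.

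Accessory subunits of the membrane arm, where protons are pumped, gave 11 of the 14 calls among 20 genes, with a median log2 fold change of 0.57. Besides Ndufa11 and Ndufc1 they were Ndufa1 (0.82), Ndufa13 (0.77), Ndufb7 (0.76), Ndufa3 (0.73), Ndufc2 (0.69), Ndufb3 (0.66), Ndufb11 (0.56), Ndufb6 (0.55) and Ndufa8 (0.52). The 9 that were not called ran from 0.09 for Ndufb2 to 0.67 for Ndufb4. Among 9 accessory subunits of the matrix arm 2 rose: Ndufa6, which holds an acyl carrier protein to the arm, and Ndufa5. Ndufa6 read 95, 111 and 76.6 CPM in ICI and 158, 172 and 161 CPM in RI (log2 fold change 0.80, SE 0.158). Its 3 RI values lay close together and above every ICI value.

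The 7 core subunits of the matrix arm carry the flavin and the iron-sulfur clusters that lead electrons from NADH to ubiquinone. Of these, 1 rose: Ndufv2, an iron-sulfur protein at the entry of that path, with 109, 140 and 122 CPM in ICI and 172, 201 and 182 CPM in RI (log2 fold change 0.58, SE 0.141). The median of the 7 was 0.31. Ndufs1, the largest of them, read 83.3, 87.5 and 103 CPM in ICI against 98.9, 92.9 and 82.2 CPM in RI. The groups overlapped fully and the log2 fold change was 0.0011 (SE 0.135).

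Ndufa4 is named for complex I but its protein is found in complex IV. It had the highest level per kilobase of transcript of the Nduf genes, 532 CPM per kb in ICI and 566 in RI. It was not called: ICI stood at 289, 344 and 341 CPM and RI at 443, 307 and 286, a log2 fold change of 0.09 (SE 0.191). Only RI replicate 1 lay above the ICI libraries, and without that library the log2 fold change was -0.13.

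In complex II, the succinate dehydrogenase that also serves the citric acid cycle, 0 of 4 genes were called (by edgeR at an unadjusted p under 0.05, Sdhb was higher and Sdha lower; DESeq2 called Sdhb higher). Sdha, the flavoprotein that oxidises succinate, was at 183, 162 and 186 CPM in ICI and 157, 95.2 and 106 CPM in RI. All RI values were below all ICI values, RI replicate 1 only just. The log2 fold change was -0.57 (SE 0.197, adjusted p = 0.0967 by edgeR), and without RI replicate 1 Sdha fell past the threshold. Its partner Sdhb, the iron-sulfur subunit, read 206, 255 and 229 CPM in ICI and 322, 345 and 271 in RI, a log2 fold change of 0.44 (SE 0.15, adjusted p = 0.0915 by edgeR). The catalytic partners thus lay on opposite sides of 0, and the difference between them was not tested. The membrane anchors Sdhc (0.24) and Sdhd (-0.05) lay between.

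In complex III, the cytochrome bc1 complex, 2 of 8 genes rose, Uqcr11 and Uqcrb, and 8 of 8 were above 0, with a median of 0.61. Both are small accessory subunits, and the 5 accessory subunits had log2 fold changes from 0.60 to 0.75. Uqcr11, whose promoter is printed above, was at 90.8, 119 and 81.4 CPM in ICI and 164, 188 and 137 CPM in RI (0.75, SE 0.185). Uqcrb was at 58.5, 63.9 and 63.8 CPM in ICI and 87.9, 124 and 92.7 CPM in RI (0.71, SE 0.155). In both genes the groups did not overlap and RI replicate 2 was highest. Uqcr10, with the highest level per kb of the complex, was not called (0.62, SE 0.169, adjusted p = 0.0573 by edgeR). The large core proteins had lower values than the accessory subunits, a difference that was not tested: Uqcrc1 was at 0.17 and Uqcrc2 at 0.0052. Uqcrc2 read 86.6, 103 and 91.7 CPM in ICI against 113, 76.1 and 92.7 CPM in RI, with RI replicates 1 and 2 on either side of the ICI range. Uqcrfs1, the Rieske iron-sulfur protein, was at 0.30 and not called.

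In complex IV, cytochrome c oxidase, whose catalytic subunits are all mitochondrially encoded, 2 of 10 nuclear subunit genes rose and 9 were above 0, with a median of 0.50. Cox7b, a small subunit, was at 242, 319 and 243 CPM in ICI and 425, 583 and 382 CPM in RI (log2 fold change 0.79, SE 0.2). Cox6c, another small subunit, was at 183, 205 and 166 CPM in ICI and 295, 350 and 247 CPM in RI (0.69, SE 0.166). RI replicate 2 was highest in both and the groups did not overlap. Cox6a1 had the highest level per kb of this complex in RI, 650 CPM per kb, and in ICI was at 470, below Cox8a at 482. It was not called (0.47, SE 0.145, adjusted p = 0.0749 by edgeR). Cox5a, an early-assembled structural subunit, was the one gene below 0: it read 102, 107 and 118 CPM in ICI and 143, 72.4 and 86.8 CPM in RI (-0.11, SE 0.24). RI replicate 1 was above the ICI range and the other RI libraries below it, and without RI replicate 2 the value was 0.087.

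In complex V 4 of 17 subunit genes rose, with a median of 0.41. The peripheral stalk, which keeps the catalytic head from turning with the rotor, gave 3 of 4: Atp5j (0.81), Atp5h (0.75) and Atp5o (0.60). Atp5h had the lowest adjusted p of all members, 0.0292 by edgeR, with 145, 184 and 156 CPM in ICI and 259, 280 and 279 CPM in RI. Atp5j read 140, 182 and 147 CPM in ICI and 249, 314 and 256 CPM in RI, again with no overlap. The fourth stalk gene, Atp5pb, was at -0.08. Atp5l, a membrane subunit found where ATP synthase pairs into dimers, rose with a log2 fold change of 0.65, the one call among 5 membrane accessory genes. Among 5 genes of the F1 head and central stalk and 3 of the proton-carrying c ring, 0 were called (by edgeR at an unadjusted p under 0.05, 1 and 1 were higher; DESeq2 called Atp5e).

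Atp5b, the catalytic beta subunit, had the highest level per kb of all members in ICI, 719 CPM per kb. In RI it was at 552, below Atp5e (663), Atp5g3 (654), Cox6a1 (650), Cox8a (626), Ndufa4 (566) and Cox4i1 (554). It read 1425, 1221 and 1484 CPM in ICI and 1604, 726 and 841 CPM in RI. RI replicate 1 was the highest library of the 6 and the other RI libraries were the lowest, so the groups overlapped. The log2 fold change was -0.38 (SE 0.29, adjusted p = 0.39 by edgeR). The alpha subunit Atp5a1 was at -0.19. The 6 pseudogene rows held at most 115 counts in any library. Of these, Atp5k-ps2, Atp5l2-ps and Atp5pb-ps were tested and not called (log2 fold changes from -0.00051 to 0.33), and Atp5c1-ps, Atp5l-ps1 and Atp5l-ps2 had too few counts for a test.

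**Figure D2:**
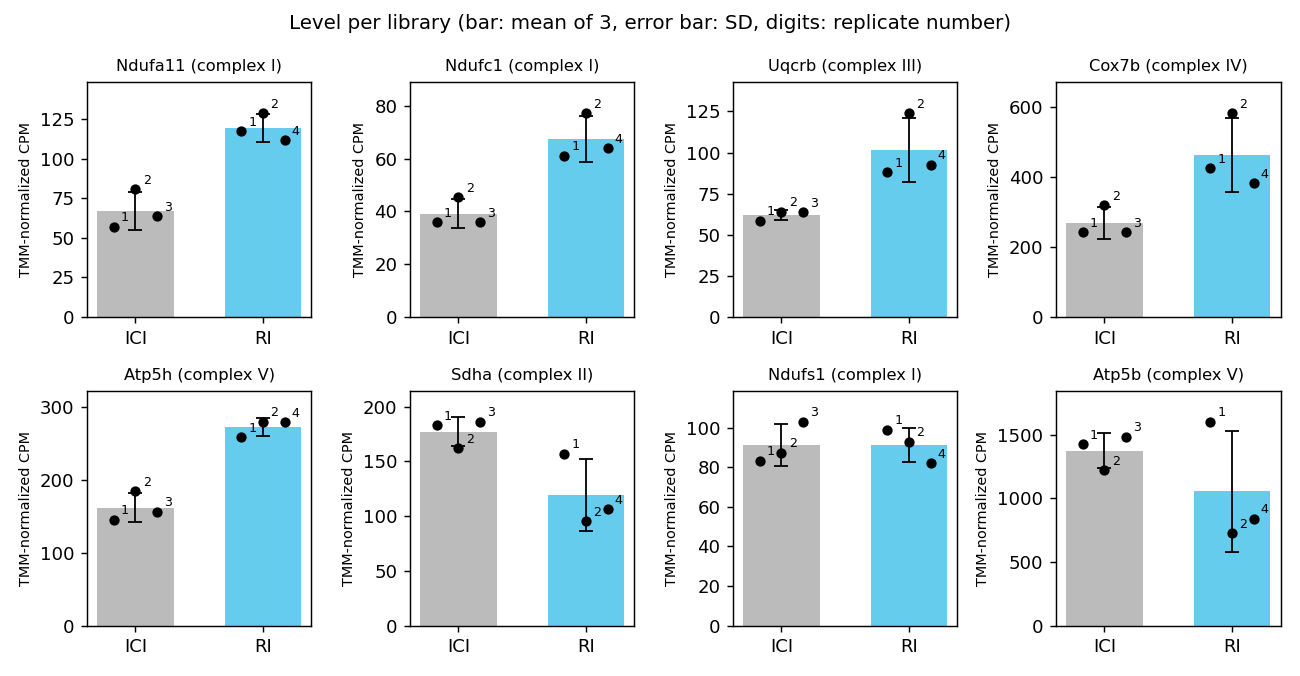
TMM-normalized CPM of 8 subunit genes in each library; bars are means of 3 libraries, error bars their SD and digits the replicate numbers. In the 5 genes that rose, Ndufa11, Ndufc1, Uqcrb, Cox7b and Atp5h, each RI point is above each ICI point, whereas for Atp5b RI replicate 1 is at 1604 and the other RI libraries at 726 and 841.

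The values were also sorted by role across complexes. The 14 catalytic and core subunits of complexes I, II, III and V, a grouping made after the values were seen, held 1 call and a median of 0.24. The other 62 subunits held 21 calls and a median of 0.56. Averaged over genes, as log2 CPM centred on each gene's mean of the 6 libraries, the core subunits stood at -0.15, -0.011 and -0.042 in ICI and at 0.32, -0.032 and -0.078 in RI. RI replicate 1 alone was above the ICI range. The other subunits stood at -0.33, -0.068 and -0.36 in ICI and at 0.32, 0.33 and 0.11 in RI, with no overlap. The core transcripts were also longer, with a median of 1657 bp against 731.5 bp, and with length and GC content removed per library the medians were 0.096 and 0.35, with 1 and 3 calls. No test was made of the difference between the classes.

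Libraries of each group differed among themselves. ICI replicate 2 was the highest ICI library for all 22 genes that rose, and RI replicate 2 the highest RI library for 19 of them, RI replicate 1 for the other 3 and RI replicate 4 for 0. Across all 76 subunit genes the mean level was -0.30, -0.057 and -0.30 in ICI and 0.32, 0.26 and 0.073 in RI. By complex, the groups did not overlap in complexes I, III, IV and V, with the smallest gap in complexes V and IV between ICI replicate 2 (-0.042 and -0.082) and RI replicate 4 (0.021 and 0.017). In complex II they overlapped, from -0.037 to 0.044 in ICI and from -0.14 to 0.20 in RI.

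**Figure D3:**
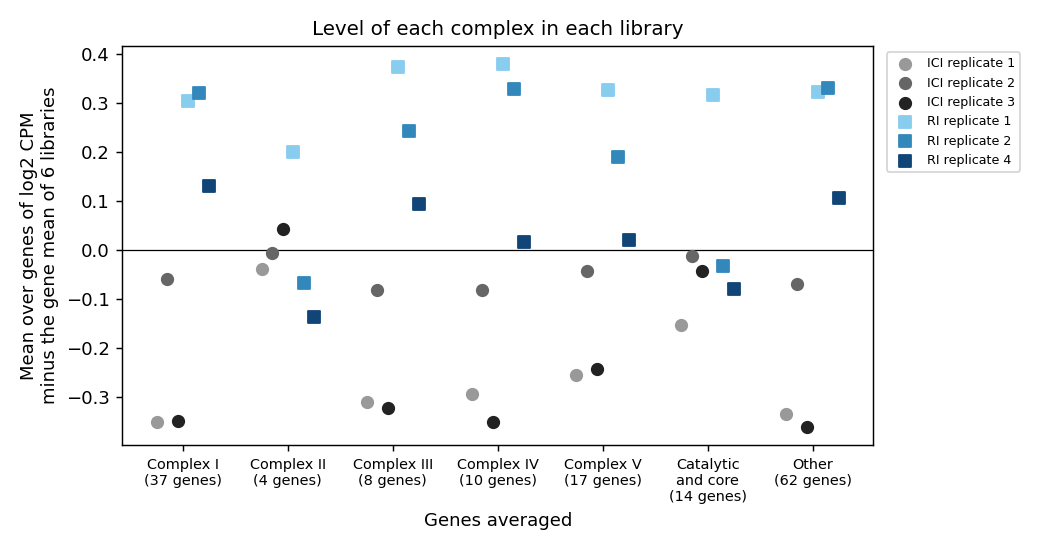
Mean level of each complex, and of core and other subunits, in each of the 6 libraries, on a log2 CPM scale centred per gene (circles ICI, squares RI). ICI replicate 2 is the highest circle except in complex II, and RI replicate 4 the lowest square in every column.

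The fold changes ran with transcript length. Across the 76 subunit genes, which share the same 6 libraries and are not independent, the log2 fold change had a Pearson correlation of -0.51 and a Spearman correlation of -0.44 with log2 length of the principal transcript. Subunit transcripts were short, with a median of 861 bp against 2630.5 bp for all tested genes. Length was that of 1 annotated transcript per gene, which may not be the form expressed. In 14 of the 82 members the longest annotated transcript was over 1.5 times the principal one. Of the 39 shorter subunit genes 16 rose and of the 37 longer ones 6. When each library's dependence on length and GC content, fitted over all genes, was removed, the correlations were -0.12 and -0.12. Then 4 members rose, Ndufc1 (0.79), Ndufv2 (0.66), Atp5h (0.58) and Ndufb3 (0.58), where 1.59% of all genes were higher, and 0 fell (by edgeR at an unadjusted p under 0.05, 33 were higher and 1 lower, against 14.3% and 12.6% of all genes). The median log2 fold change was then 0.33 in complex I, 0.025 in complex II, 0.29 in complex III, 0.31 in complex IV and 0.17 in complex V. Ndufc1 kept its value, 0.79 with and without the correction, whereas Ndufa11 went from 0.83 to 0.42 and Uqcr11 from 0.75 to 0.31.

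**Figure D4:**
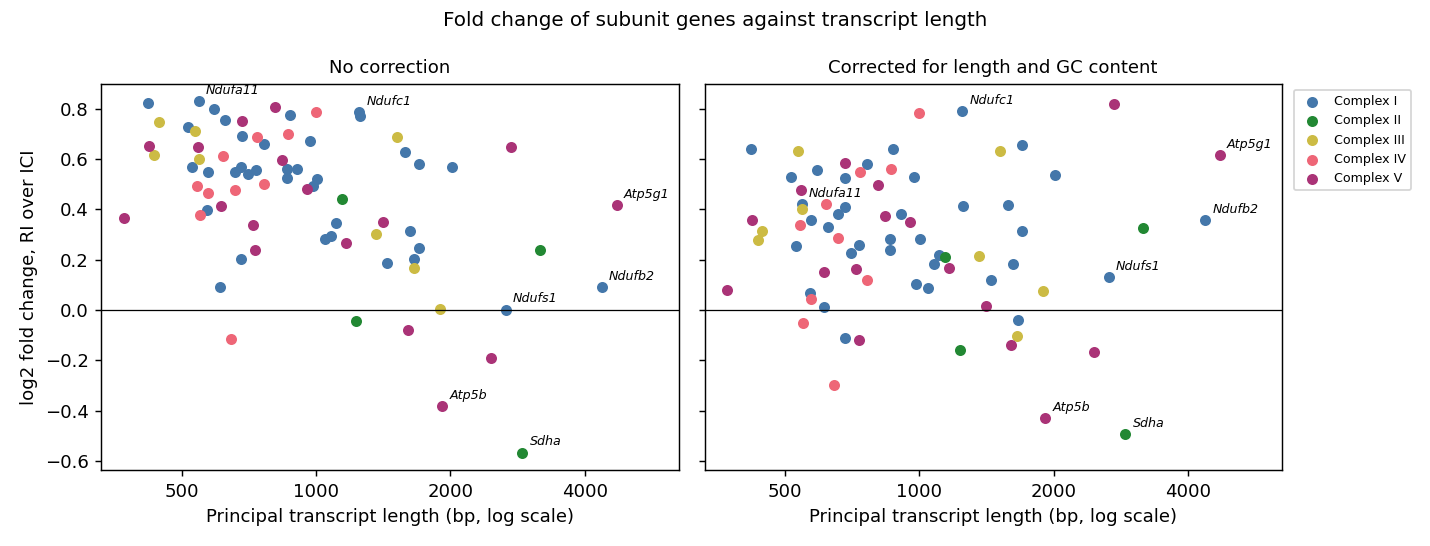
Log2 fold change of RI over ICI of the 76 subunit genes against the length of their principal transcript on a log axis, without correction (left) and with length and GC content removed per library (right). The slope on the left (Pearson correlation -0.51) is mostly gone on the right (-0.12), while Sdha and Atp5b remain the lowest points.

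Some counts may hold reads of other genes. By exon overlap or near-identical copies, 27 subunit genes shared at least 20% of their transcript, among them 11 of the 22 that rose: Ndufa13, Ndufb11, Ndufb3, Ndufb6, Uqcrb, Cox6c, Cox7b, Atp5l, Atp5h, Atp5j and Atp5o. Their values are uncertain to that extent, since the counting of shared reads is not given in the sources used here. The remaining 11 were Ndufa1, Ndufa3, Ndufa5, Ndufa6, Ndufa8, Ndufa11, Ndufb7, Ndufc1, Ndufc2, Ndufv2 and Uqcr11. All of these but Uqcr11, of complex III, belong to complex I, so every call in complexes IV and V was a gene that shares sequence.

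The mitochondrially encoded partners of these subunits were higher by more. All 13 rose, with a median log2 fold change of 1.76. Per count of nuclear subunits of complex I, counts of its 7 mitochondrially encoded subunits were 3.72 ± 0.152 (SD, n = 3) in ICI and 9.37 ± 0.676 in RI, a ratio of 2.52. In complex III, where Cytb is the one mitochondrially encoded subunit, the value went from 4.34 ± 0.339 to 11 ± 0.578. In complex IV it was 9.71 ± 0.396 in ICI and 20.8 ± 4.85 in RI, and in complex V 1.11 ± 0.0741 and 3.44 ± 0.0863, the largest ratio at 3.09. In each complex all RI libraries lay above all ICI libraries. Nuclear copies of mitochondrial genes can share such reads, and no test was made of these ratios. The nuclear counts were grouped by symbol, so Ndufa4 is counted with complex I and Cyc1 is not counted in complex III.

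**Figure D5:**
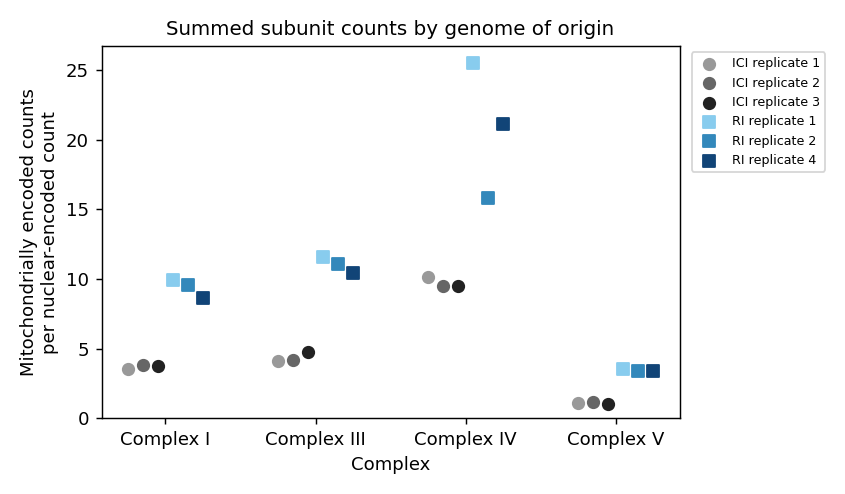
Summed counts of mitochondrially encoded subunits per count of nuclear-encoded subunits grouped by symbol to the same complex, in each library (circles ICI, squares RI). ICI libraries lie between 3.55 and 3.84 for complex I and RI libraries between 8.62 and 9.93, and the groups are apart in all 4 complexes.

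Fewer calls fell on the other genes of the pathway, a difference that was not tested. Of 14 tested carriers and subunits that the symbols left out, 3 rose and 0 fell: Atpif1, the inhibitor of ATP synthase running in reverse (0.73), Coq7, an enzyme of ubiquinone synthesis (0.73), and Higd2a, a complex IV factor (0.54). With length and GC content removed none of the 3 was called, at 0.51, 0.54 and 0.31, and Atpif1 shares 31.5% of its transcript with another gene by exon overlap. Cytochrome c (Cycs, 0.16) and Cyc1 (0.08) were not called. Of 16 assembly factors of complex I, 0 rose and 1 fell, Timmdc1 (-0.63), and their median was 0.04. In the other assembly lists 1 of 4 rose for complex II (Sdhaf1, 1.32), 1 of 6 for complex III (Uqcc3, 1.32), 1 of 19 for complex IV (Cmc1, 0.80) and 0 of 5 for complex V (by edgeR at an unadjusted p under 0.05, 2 were higher and 0 lower). Sdhaf1 and Uqcc3 were scarce, at 3.18 and 2.44 CPM on average in ICI, and Sdhaf1 shares 69.6% of its transcript with another gene. With length and GC content removed Timmdc1 (-0.70) and Sdhaf1 (1.35) were still called, and Uqcc3 (1.13) and Cmc1 (0.79) were not.

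Of 10 regulators of respiratory genes 0 rose and 1 fell, by edgeR (at an unadjusted p under 0.05, 1 was higher and 4 lower), with a median of -0.35. Tfam, which packages and transcribes mitochondrial DNA, fell by 0.48 on the log2 scale, from 51.7 ± 1.84 CPM (SD, n = 3) to 37.0 ± 1.49. With length and GC content removed it was at -0.25 and no longer called. The factors whose motifs were searched were not called: Nrf1 was at -0.31, Yy1 at -0.28 and Gabpa at -0.50 (adjusted p = 0.0565 by edgeR for Gabpa), and the coactivator Ppargc1a was at -0.47. With length and GC content removed the values of Nrf1, Yy1, Gabpa and Ppargc1a were -0.37, -0.080, -0.19 and -0.13. The 2 regulators above 0, Esrra (0.42, adjusted p = 0.0972 by edgeR) and Tfb2m (0.19), were not called either. Their values with length and GC content removed were 0.16 and 0.34.

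Tissue isoforms of the subunits, among them those of heart and skeletal muscle, were left out by the symbols and were scarce. Cox6a2 was at 4.14, 7.78 and 0.69 CPM in ICI and 21.8, 14.6 and 7.65 in RI, and Cox7a1 at 2.24, 2.01 and 1.74 and at 4.15, 5.72 and 3.27. Neither was called, nor was any of the 5 tested tissue isoforms, Cox4i2 and Ndufa4l2 included. By edgeR at an unadjusted p under 0.05, 2 were higher and 1 lower, Cox4i2. Skeletal muscle, a tissue rich in respiratory chain transcripts, could enter a tumour piece, and 13 of its markers summed to 265, 219 and 3.45 CPM in ICI and to 2992, 1372 and 24.6 CPM in RI, with 0 of 12 tested called and none at 0 in all libraries. By library, the mean level of all 76 subunit genes was -0.30, -0.057 and -0.30 in ICI and 0.32, 0.26 and 0.073 in RI. Adipocyte markers summed to at most 26.5 CPM in ICI and to 59.9 to 79.9 CPM in RI, with 1 of 7 tested called, Plin4. Among the 7 melanocyte lineage genes 1 was called, Mlana (higher in RI, log2 fold change 0.75), and 3 were above 0. With length and GC content removed Mlana was at 0.65 and not called. Red cell markers summed to 226, 646 and 4478 CPM in ICI and to 144, 454 and 109 in RI, with 0 of 5 called. Fibroblast markers summed to 106 to 710 CPM in ICI and 352 to 736 in RI, with 7 of 7 log2 fold changes above 0. T cell markers summed to 2.47 to 43.0 CPM and 0.793 to 10.8, with 0 of 6 above 0. The adipocyte sums of all RI libraries lay above those of all ICI libraries. Muscle, red cell, fibroblast and T cell sums overlapped between the groups. So did those of endothelial cells (57.0 to 150 and 33.6 to 172 CPM) and macrophages (88.8 to 99.4 and 84.7 to 179). Neutrophils (1.38 to 2.63 and 2.01 to 10.9) and B cells (1.80 to 2.54 and 1.83 to 3.31) overlapped too. Of the genes tested in these overlapping lists 0 were called by edgeR. Before adjustment, 1 fibroblast, 2 macrophage and 2 neutrophil genes were higher at p under 0.05 and 0 lower. The part of muscle, adipocytes, red cells and these other cells in the result was not tested.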

How the data were processed

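RNA of 6 bulk tumours was compared as 3 RI against 3 ICI libraries, grouped by title and treatment label. The authors deposited whole-number counts per Ensembl gene, not normalized. Per the submitters' processing notes, reads were aligned with HISAT2 to GRCm38 (mm10). Not given in the sources used here are the counter, its annotation and strand setting, and software versions. From the counts, edgeR 4.0.16 (R 4.3.3) kept genes by filterByExpr (16924), scaled libraries by TMM and applied the robust quasi-likelihood test with Benjamini-Hochberg adjustment over all of them. SEs come from the coefficient and its F statistic. Levels are TMM-normalized CPM. Centred log2 CPM used a prior count of 2. Lengths, GC content and overlaps came from GENCODE release M21, for 99.6% of tested genes. The correction used natural splines with 5 degrees of freedom for log2 length and for GC content, fitted per library. Near-identity meant at least 95% over 200 bases. The script was tested on simulated data.

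The members and gene lists were chosen with earlier results of these data known. The named genes were every called member, the highest, lowest and most abundant per kb of each complex, Ndufa4 and members with no test. Others are named with their list. A withheld item is not reported here by name. Alternatives were other scalings and filters, DESeq2 1.42.0, limma-voom 3.58.1, non-robust estimation, a replicate block, the correction for length and GC content, members that share sequence left out, and each library left out.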

Additional observations from a re-analysis of the deposited data

How the results depend on the processing

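The number of members that rose, 22, was 33 with no filter on low counts (3.23% of all genes higher). There Sdha also fell (1 lower, against 4.35% of all genes). The number that rose moved by more in other settings. It was 43 with DESeq2 (10.3% of all genes higher) and 4 with the correction for length and GC content (1.59%). When each library was left out it was 0 to 27, with 0 to 2 lower. Of all genes 0% to 8.91% were then higher and 0% to 8.8% lower. Leaving the 30 tested members that share sequence out of the same fit, with no new fit, left 11 by subtraction. Other scalings, the stricter filter, limma-voom, non-robust estimation and scaling without mitochondrially encoded genes gave 19 to 29 higher and 0 lower. In these settings 4.02% to 6.18% of all genes were higher and 2.94% to 5.2% lower. The 29 came with upper-quartile scaling, under which 1046 of all genes were higher and 497 lower against 754 and 799.

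The labels give replicate numbers 1 and 2 in both groups without saying that they pair. Deviations of same-numbered libraries correlated at 0.35 for number 1 and 0.091 for number 2 over 16924 genes, and the numbers were not taken as pairs. Only replicates 1 and 2 have a same-numbered library in the other group, so a fit with the replicate block draws its contrast from these alone. With the replicate block 1 member rose, Ndufa5 (2.36% of all genes did), and 44 were higher at an unadjusted p under 0.05 (12.6% of all genes). With the replicate block and the length and GC correction 4 of 79 rose, Atp5md, Cox7b, Ndufa5 and Ndufc1, where 4.05% of all genes did, and the medians were 0.35 in complex I and 0.33 in complex III.

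With the length and GC correction the medians were 0.33, 0.29, 0.31 and 0.17 in complexes I, III, IV and V. With that correction and RI replicate 1 left out, 16 members rose and 3 fell (Atp5b, Cox5a and Sdha), against 7.73% and 6.5% of all genes, and the medians were 0.35, -0.11, 0.23, 0.26 and 0.18 in complexes I to V. The median of complex II was between -0.013 and 0.15 when each library was left out.

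Signs changed for genes near 0. Ndufs1 was at -0.00060 without mitochondrially encoded genes, -0.057 without a filter and from -0.072 to 0.087 with each library left out. Uqcrc2 was at -0.056 without a filter, -0.0090 with limma-voom, -0.022 with the replicate block, -0.10 with the length and GC correction and RI replicate 1 left out, and from -0.15 to 0.15 with each library left out. Ndufa4 was from -0.13 to 0.21 with each library left out and -0.22 with the correction and RI replicate 1 left out. Cox5a was from -0.45 to 0.087 with each library left out. The 22 genes that rose stayed above 0 in every setting, which their lack of overlap all but fixed. The cause of these changes was not tested. Each subunit gene had at least 290 counts in every library. The effect of depth was not tested.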
